A study of Drosophila melanogaster with 6 samples.

Results

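The proteasome subunit genes of Drosophila melanogaster were examined in indirect flight muscle in which the transcription factor M1BP had been depleted. Members were all genes of the count table whose symbol begins with Prosalpha, Prosbeta, Rpn or Rpt and a digit, which gave 47 of 17494 genes. They fell into 32 somatic subunits, which make up the proteasome of ordinary body cells, and 15 paralogues whose symbol ends in T or R, with or without a number. The 32 somatic subunits comprised 7 alpha and 7 beta subunits of the core particle, 6 ATPases (Rpt1 to Rpt6) and 4 other subunits (Rpn1, Rpn2, Rpn10 and Rpn13) of the base, and 8 subunits of the lid. All 32 passed edgeR's filter on low counts, together with 8806 genes in all, and 0 of the 15 paralogues did.

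The proteasome is the large protease that degrades ubiquitin-tagged proteins in the cytosol and nucleus of all eukaryotic cells. Its barrel-shaped core is built of stacked rings, in which the alpha subunits form the gated entrance and 3 of the beta subunits carry the proteolytic sites. A regulatory particle caps the core: its base unfolds substrates with a ring of ATPases and binds ubiquitin chains, and its lid removes those chains through the deubiquitinase Rpn11. The particle needs its subunits in fixed proportions. In flies, several subunits have a second gene that is known for expression in the male germline.

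Libraries came from dorsolongitudinal flight muscles dissected at 64 h after puparium formation (APF) from 2 groups of 3. In the M1BP RNAi group, a UAS-M1BP RNAi transgene, for which the methods name RNAi line #1 where no line is specified, was driven by Mef2-GAL4, which acts in muscle cells and their precursors. The WT group carried Mef2-GAL4 without the RNAi transgene. Pupae of both groups were staged at 25 °C, each library pooled the muscles of 6 to 8 pupae, and the methods describe triplicate RNA preparations, so that p-values measure the spread between pools.

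The libraries held 42215400 to 43136388 counts in M1BP RNAi and 43017456 to 54890681 in WT. Genes of the mitochondrial genome took 15.1% to 23.4% of the counts in M1BP RNAi and 26.2% to 44.2% in WT, where replicate 2 was highest. M1BP itself, a zinc finger factor that binds promoters of broadly expressed genes, had 3.00, 3.57 and 2.63 CPM (counts scaled to a common library size) in M1BP RNAi, against 8.19, 6.97 and 8.83 in WT, and its log2 fold change was -1.38 ± 0.15 (SE, edgeR quasi-likelihood test, adjusted p = 9.54e-04). The call on M1BP was lost in each fit that left out 1 library, with edgeR adjusted p-values of 0.00198 to 0.00841. With all libraries it was also lost with RLE scaling (edgeR adjusted p = 0.00112) and with mtDNA genes left out (0.00128). The same held with the replicate number as a block (edgeR adjusted p = 0.00502) and with the roX1 level, described next, as a covariate (0.00540). It was kept with DESeq2 and with other filters on low counts. The noncoding RNA roX1, part of male dosage compensation, had 30.7, 30.2 and 63.1 CPM in M1BP RNAi, against 0.0414, 0.206 and 22.3 in WT, so that WT replicates 1 and 2 stood apart from the other 4 libraries, and the difference between the groups did not pass the test (log2 2.45 ± 1.52, edgeR adjusted p = 0.278). The labels do not give the sex of the pooled pupae. WT replicate 3 stood apart from the other 5 libraries on the second principal component. All 12 flight muscle markers had a log2 fold change below 0, with summed levels of 96652 to 101780 CPM in M1BP RNAi and 134840 to 153060 CPM in WT. The 5 haemocyte markers, none at 0, summed to 33.9 to 45.7 CPM in M1BP RNAi and 21.0 to 26.1 CPM in WT, but Pxn made up most of the sum, and at an adjusted p of 0.05 only Hml and Pxn rose, while NimC1 had a log2 fold change of -0.41. Of 6 fat body markers, none at 0, 5 had a log2 fold change above 0 and 1 (FASN1, edgeR adjusted p = 0.0313) passed the test, and their sums overlapped, at 153 to 265 CPM in M1BP RNAi and 75.4 to 269 CPM in WT. The part of haemocyte and fat body RNA in the results was not tested. In bulk muscle, fewer cells of a type and less RNA per cell cannot be told apart.

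Most somatic subunits were moderately higher in M1BP RNAi, and a few core subunits moved strongly and in opposite directions. Of the 31 subunits other than Prosalpha1, 26 had a log2 fold change above 0, and their median was 0.38, against -0.016 over all genes tested. With the adjusted p set at 0.05 and no minimum fold, 21 of the 31 rose (67.7%) and 2 fell, where 13.8% of all genes tested rose and 16.9% fell. The CPM values of the groups did not overlap for 22 of the 31 in the higher direction and 3 in the lower, against 21.5% and 25.0% of all genes. The threshold of the study's methods was an adjusted p of 0.001 and a change of 1.5-fold. It called 3 subunits higher (Prosalpha6, Prosbeta2 and Rpn11) and 2 lower (Prosalpha2 and Prosbeta6), where it called 2.2% of all genes higher and 2.88% lower. The same 5 subunits were called with the mitochondrial genome left out, where 194 of 8799 genes were called higher and 229 lower. With RLE scaling the calls were 3 higher and 1 lower, where 2.12% and 2.45% of all genes were called, and with DESeq2 they were 5 higher, with Prosalpha3 and Prosbeta3 added, and 2 lower, where DESeq2 called 6.04% of all genes higher and 5.04% lower. In the fits that left out 1 library, Prosalpha6, Prosbeta2 and Prosbeta6 were called only without WT replicate 3, where 2.72% of all genes were called higher and 2.55% lower, and Prosalpha2 and Rpn11 in none, with edgeR adjusted p-values of these 5 genes up to 0.00799. Among these fits the number that rose at an adjusted p of 0.05 was lowest without M1BP RNAi replicate 2, at 10, where 7.72% of all genes rose. The same 2 subunits, Prosalpha2 and Prosbeta6, fell in that fit, where 9.13% of all genes fell.

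**Figure D1:**
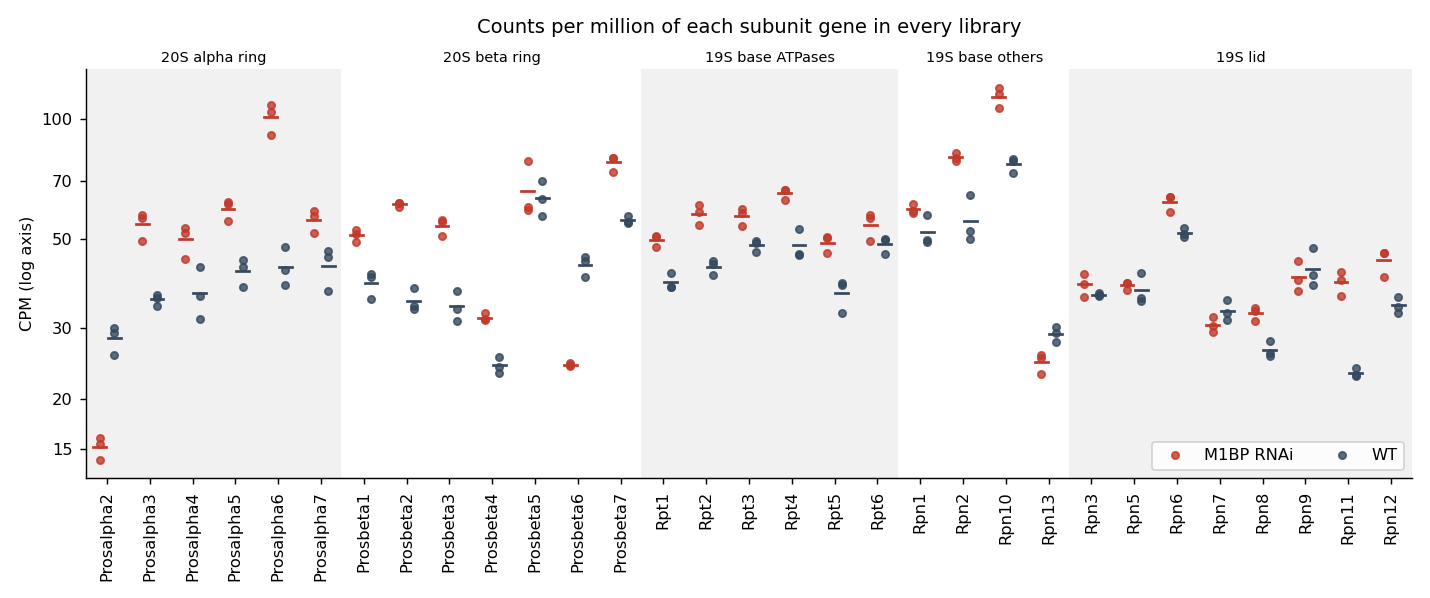
CPM (log axis) of 31 somatic subunit genes in each library, with M1BP RNAi to the left of WT. Each point is 1 library, each bar the mean of 3, and shading separates the subunit classes. The M1BP RNAi points lie above the WT points for 22 genes and below them for Prosalpha2, Prosbeta6 and Rpn13.

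In the alpha ring, the 6 subunits other than Prosalpha1 comprised the strongest rise and the strongest fall of all subunits. Prosalpha6, on chromosome arm 2L (10221351 to 10222546, dm6, plus strand), had 91.0, 104 and 108 CPM in M1BP RNAi, against 38.4, 41.9 and 47.7 CPM in WT. Every M1BP RNAi library was above every WT library, and the change was 2.37-fold (log2 1.25 ± 0.11, SE, edgeR adjusted p = 4.34e-04). Prosalpha2, on 3R (12431321 to 12432556, plus strand), had 14.1, 15.4 and 16.0 CPM in M1BP RNAi, against 25.8, 30.1 and 29.2 CPM in WT. Here every M1BP RNAi library was below every WT library, and the level in M1BP RNAi was 0.534 times that in WT (log2 -0.90 ± 0.09, edgeR adjusted p = 8.00e-04). The last 24 exonic bases of Prosalpha2 overlap Aos1 on the opposite strand.

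Prosalpha5 had 55.5, 62.1 and 61.4 CPM in M1BP RNAi, against 37.9, 44.5 and 42.7 CPM in WT, without overlap, and its log2 fold change of 0.52 ± 0.09 had an edgeR adjusted p of 0.00584. Prosalpha3, with 49.4 to 57.6 CPM in M1BP RNAi and 34.1 to 36.4 CPM in WT, rose by 0.62 ± 0.08 on the log2 scale (edgeR adjusted p = 0.00217). Prosalpha4 (0.44 ± 0.13, edgeR adjusted p = 0.0407) and Prosalpha7 (0.38 ± 0.11, edgeR adjusted p = 0.0366) lay closer to the background. The 4 subunits thus passed the adjusted p of 0.05 but not the stricter call.

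Prosalpha1 could not be measured in the same way. It had only 14, 6 and 12 counts in M1BP RNAi, against 43, 1 and 5 in WT, where Prosalpha2, the lowest of the other alpha subunits, had 768 to 1245 counts over all libraries. A neighbouring gene, CG30382, which RefSeq names Prosalpha1R and which was chosen after its values were seen, had 11, 6 and 7 counts in M1BP RNAi, against 6, 6 and 3 in WT. The deposited counts hold uniquely mapped reads only, so reads shared by near-identical copies are not in them, and the values of both genes are uncertain. The fitted log2 fold change of Prosalpha1 was -0.86 ± 0.95 (edgeR adjusted p = 0.551) and became 1.26 without WT replicate 1, so it was left out of medians and counts over subunits. With it, the median over 32 subunits was 0.38.

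In the beta ring, 5 of 7 subunits rose at an adjusted p of 0.05 and 1 fell. Prosbeta2, the subunit with trypsin-like activity, lies on 3L (14999951 to 15001319, plus strand) and had 60.3, 61.6 and 61.5 CPM in M1BP RNAi, against 34.2, 37.7 and 33.6 CPM in WT. The groups were well separated, with a 1.74-fold rise (log2 0.80 ± 0.07, edgeR adjusted p = 4.89e-04). Prosbeta5, which carries the chymotrypsin-like activity, had 60.3, 78.4 and 59.2 CPM in M1BP RNAi, against 57.1 to 69.9 CPM in WT. These groups overlapped, and no change was detectable (log2 0.06 ± 0.13, edgeR adjusted p = 0.782). Prosbeta1, the subunit of caspase-like activity, rose by 0.40 ± 0.08 on the log2 scale (edgeR adjusted p = 0.0111), with 49.3 to 52.9 CPM in M1BP RNAi and 35.6 to 41.0 CPM in WT. The 3 catalytic subunits therefore spanned the range between no detectable change and a called rise.

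Among the beta subunits without a proteolytic site, Prosbeta6, on 3L (16609400 to 16610418, minus strand), had 24.1, 24.3 and 24.5 CPM in M1BP RNAi, against 40.2, 44.0 and 45.2 CPM in WT. All M1BP RNAi values were below all WT values, and the level was 0.564 times that in WT (log2 -0.83 ± 0.07, edgeR adjusted p = 4.53e-04). Prosbeta7 had 73.5, 79.7 and 80.0 CPM in M1BP RNAi, against 57.2, 55.2 and 54.8 CPM in WT, a rise of 0.48 ± 0.07 on the log2 scale (edgeR adjusted p = 0.00269). Prosbeta3 rose by 0.67 ± 0.09 (edgeR adjusted p = 0.00210) and Prosbeta4 by 0.40 ± 0.07 (edgeR adjusted p = 0.00703). Over the 13 core subunits, 10 rose and 2 fell at an adjusted p of 0.05, and the median log2 fold change was 0.44.

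**Figure D2:**
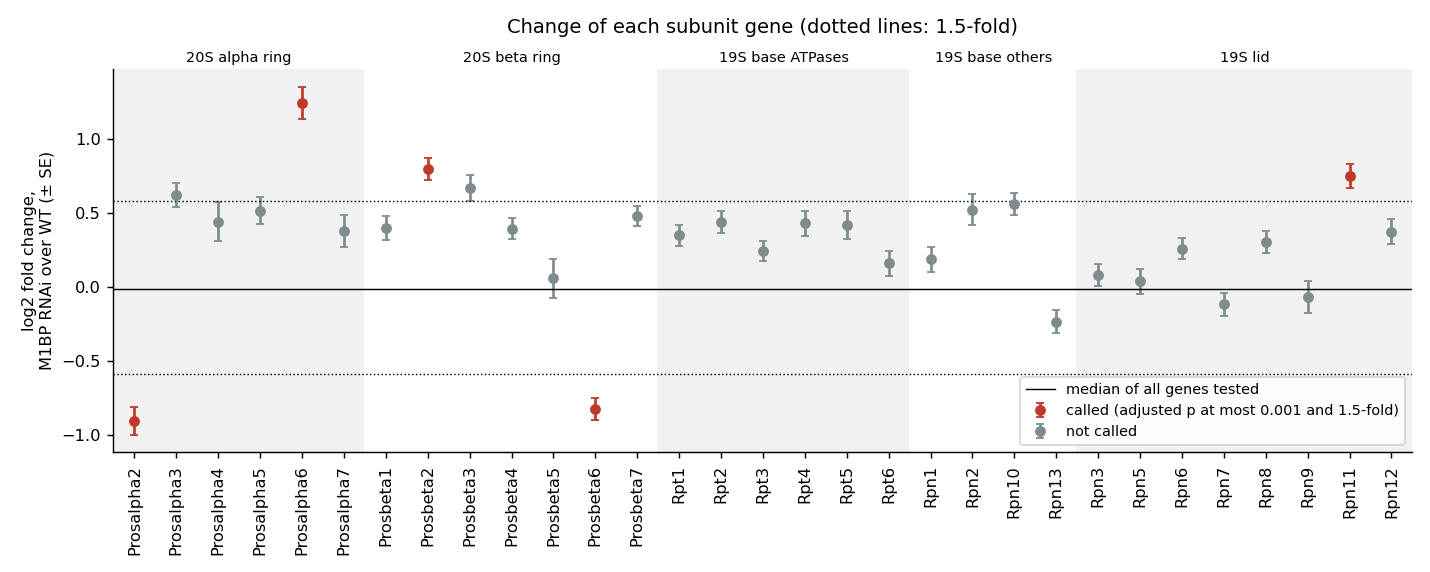
Log2 fold change of M1BP RNAi over WT for 31 somatic subunit genes, with the standard error of the edgeR fit. Dotted lines mark 1.5-fold and the solid line the median of all genes tested. Red points are the called genes, at 1.25 (Prosalpha6), 0.80 (Prosbeta2), 0.75 (Rpn11), -0.83 (Prosbeta6) and -0.90 (Prosalpha2).

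The 6 ATPases of the base, which thread unfolded substrates into the core, moved more evenly than the core subunits. All 6 had a log2 fold change above 0, between 0.16 and 0.44, and 5 rose at an adjusted p of 0.05. Rpt2 was at the upper end, with 54.2, 58.4 and 61.0 CPM in M1BP RNAi, against 40.6, 43.3 and 44.1 CPM in WT (log2 0.44 ± 0.08, edgeR adjusted p = 0.00611). Rpt4 had 62.6, 66.2 and 66.5 CPM in M1BP RNAi, against 46.1, 45.7 and 53.1 CPM in WT (log2 0.43 ± 0.08, edgeR adjusted p = 0.00915). In both genes the groups did not overlap. Rpt6 was at the lower end, with 49.5, 56.4 and 57.4 CPM in M1BP RNAi, against 45.9, 50.1 and 49.9 CPM in WT, where the ranges overlapped (log2 0.16 ± 0.08, edgeR adjusted p = 0.202). Rpt1, Rpt3 and Rpt5 rose by 0.35, 0.24 and 0.42 on the log2 scale, with edgeR adjusted p-values of 0.0113, 0.0397 and 0.0151.

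The other base subunits went in both directions. Rpn10, a ubiquitin receptor, had 106, 119 and 115 CPM in M1BP RNAi, against 73.0, 78.6 and 79.4 CPM in WT, and rose by 0.56 ± 0.07 on the log2 scale (edgeR adjusted p = 0.00212). Rpn13, also a ubiquitin receptor, had 23.1, 25.7 and 25.3 CPM in M1BP RNAi, against 29.2, 27.8 and 30.3 CPM in WT. Its values did not overlap between the groups and were lower in M1BP RNAi, but it did not pass the test (log2 -0.23 ± 0.08, edgeR adjusted p = 0.0630). Of the large scaffold subunits, Rpn2 rose by 0.52 ± 0.11 (edgeR adjusted p = 0.0108), whereas Rpn1 had a log2 fold change of 0.19 ± 0.08 (edgeR adjusted p = 0.140). The stricter threshold called 0 of the 10 base subunits with edgeR and 0 with DESeq2. At an unadjusted p below 0.05 edgeR counted 7 higher and 1 lower. In the same fit 3649 of all 8806 genes tested had an unadjusted p below 0.05, both directions together.

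In the lid, 4 of 8 subunits rose and 0 fell at an adjusted p of 0.05. At an unadjusted p below 0.05 the edgeR count was the same 4 of 8, where 3649 of all 8806 genes tested passed. Rpn11, the deubiquitinase, on 2L (5058404 to 5059790, minus strand), had 36.1, 41.5 and 39.5 CPM in M1BP RNAi, against 23.9, 22.7 and 23.0 CPM in WT. It was the only called lid subunit, 1.68-fold higher without overlap (log2 0.75 ± 0.08, edgeR adjusted p = 8.75e-04). Rpn12 had 40.4, 46.3 and 46.2 CPM in M1BP RNAi, against 32.8, 36.0 and 33.9 CPM in WT (log2 0.37 ± 0.08, edgeR adjusted p = 0.0167). Rpn8, the partner of Rpn11, rose by 0.30 ± 0.07 (edgeR adjusted p = 0.0225) and Rpn6 by 0.26 ± 0.07 (edgeR adjusted p = 0.0289).

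The remaining lid subunits, all scaffold proteins, did not pass the test. Rpn7 had the lowest log2 fold change of the lid, -0.12 ± 0.08 (edgeR adjusted p = 0.318), with 29.4, 32.1 and 30.5 CPM in M1BP RNAi, against 32.8, 31.4 and 35.3 CPM in WT. The values of the groups overlapped. Rpn3, Rpn5 and Rpn9 had log2 fold changes of 0.08, 0.04 and -0.07, with edgeR adjusted p-values of 0.450, 0.765 and 0.685. The median log2 fold change was 0.17 in the lid, 0.38 in the base and 0.44 in the core without Prosalpha1, and the differences between these classes were not tested.

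X-linked and autosomal subunits were compared because roX1 was nearly absent from WT replicates 1 and 2 and the sex of the pools is not known. The 4 subunit genes on the X chromosome (Prosalpha4, Rpt3, Rpt4 and Rpt6) had a median log2 fold change of 0.34 and the 27 autosomal ones 0.38, against -0.008 for all 1481 X-linked genes tested. With the roX1 level as a covariate, 8 of the 31 subunits rose (25.8%) and 2 fell at an adjusted p of 0.05, and the median was 0.28. In that fit 8.59% of all genes rose and 11.2% fell. Only WT replicate 3 among the WT libraries had roX1 well above 0, so the adjusted difference rests largely on that library. Without WT replicates 1 and 2, which had almost no roX1 reads, 10 rose (32.3%) and 2 fell, where 8.94% of all genes rose and 11.2% fell, with a median of 0.30. The 2 subunits that fell with the covariate were Prosalpha2 and Prosbeta6, with log2 fold changes of -0.99 and -0.92. Without WT replicates 1 and 2 their log2 fold changes were -0.96 and -0.90. In that fit WT replicate 3 was the only WT library, so the counts that passed include no spread between WT libraries. With the covariate 0 subunits met the stricter threshold, where 40 of all genes were called higher and 113 lower, against 194 and 254 without it.

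**Figure D3:**
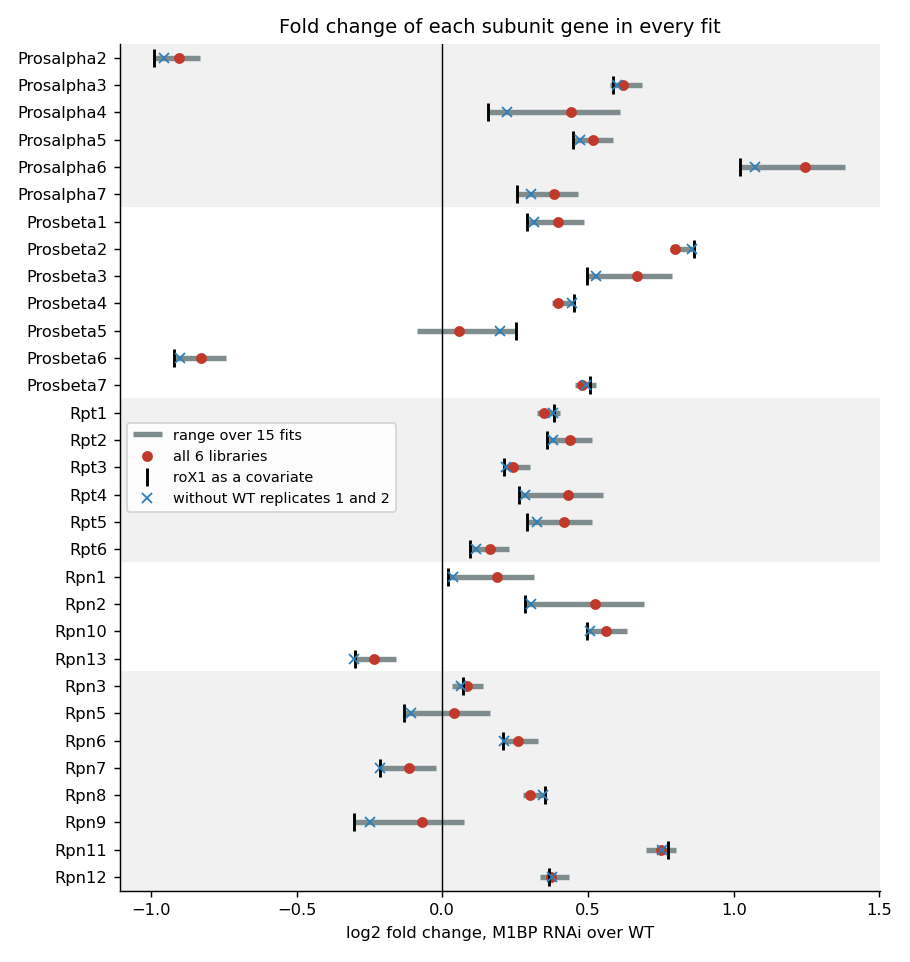
Log2 fold change of M1BP RNAi over WT for 31 somatic subunit genes in 15 fits. Grey bars span all fits, the red point is the fit of all 6 libraries, the black tick the fit with roX1 as a covariate and the cross the fit without WT replicates 1 and 2. The sign was positive in all fits for 24 genes and negative in all for 4 (Prosalpha2, Prosbeta6, Rpn13 and Rpn7).

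Levels were then compared between subunits, per kilobase of summed exon length (RPKM). The summed level of the 31 subunits was 1544, 1699 and 1676 CPM in M1BP RNAi, against 1221, 1298 and 1336 CPM in WT, and their median level was 34.8, 38.2 and 37.5 RPKM in M1BP RNAi, against 29.5, 31.2 and 31.7 RPKM in WT. In both quantities all 3 M1BP RNAi libraries were above all 3 WT libraries. The levels of the subunits were also more unequal: the SD of log2 RPKM across the 31 was 0.69, 0.71 and 0.71 in M1BP RNAi, against 0.50, 0.56 and 0.50 in WT. The highest subunit exceeded the lowest 6.15-, 6.33- and 6.68-fold in M1BP RNAi, against 3.60-, 4.18- and 3.35-fold in WT.

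The wider spread was seen most in the core. Across the 13 core subunits the SD of log2 RPKM was 0.64, 0.67 and 0.65 in M1BP RNAi, against 0.30, 0.29 and 0.27 in WT. Across the 6 ATPases it was 0.20, 0.19 and 0.20 in M1BP RNAi, against 0.27, 0.21 and 0.26 in WT. Across the 8 lid subunits it was 0.39, 0.42 and 0.42 in M1BP RNAi, against 0.31, 0.33 and 0.34 in WT. Across the 4 other base subunits it was 1.06, 1.08 and 1.08 in M1BP RNAi, against 0.83, 0.90 and 0.79 in WT. The core subunits, which enter the particle in equal number, were thus closer to level in WT than in M1BP RNAi, while the ATPases were close to each other in both groups. The core includes 2 subunits called higher and 2 called lower, so its wider spread is not independent of those calls.

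The called core subunits moved in the order of levels. Prosalpha6 was the subunit of highest mean level in M1BP RNAi and ranked 8 of 31 in WT, and Prosalpha2 ranked 30 in M1BP RNAi and 17 in WT. The RPKM ratio of Prosalpha6 to Prosalpha2 was 5.54, 5.82 and 5.83 in M1BP RNAi, against 1.28, 1.20 and 1.41 in WT. In the beta ring, Prosbeta6 ranked 22 in M1BP RNAi and 5 in WT, and the ratio of Prosbeta2 to Prosbeta6 was 2.28, 2.31 and 2.29 in M1BP RNAi, against 0.775, 0.783 and 0.678 in WT. Each pair was formed from the called subunits of its ring, so the direction of both ratios follows from that choice and they are given as a description. Rpn10 and Prosbeta7 kept ranks 2 and 3 in both groups, and Prosbeta5 ranked 8 in M1BP RNAi and 1 in WT.

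**Figure D4:**
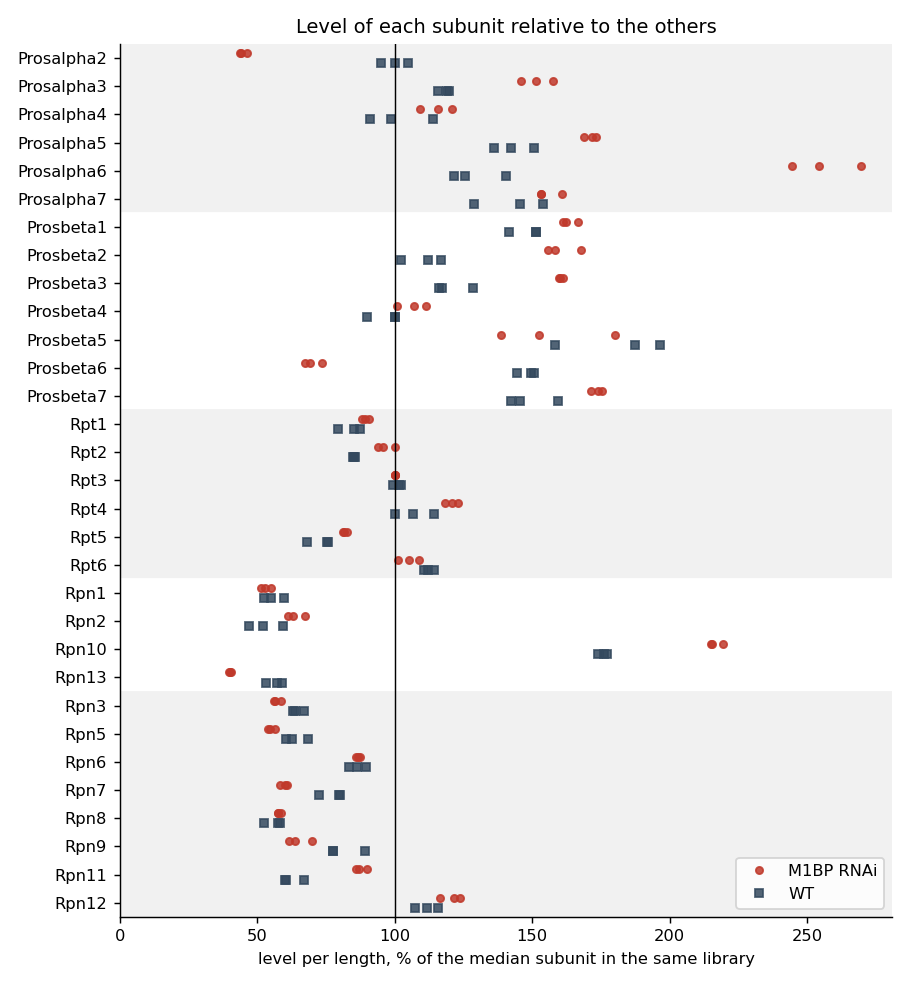
Level per exon length of each subunit as a percentage of the median subunit in the same library, with M1BP RNAi (circles) above WT (squares) in each row and shading by subunit class. In M1BP RNAi, Prosalpha6 stands far right and Rpn13 and Prosalpha2 furthest left. Prosbeta6 lies at 67.4% to 73.4% in M1BP RNAi, against 144% to 151% in WT. The core subunits are close together in WT, with SDs of log2 RPKM of 0.27 to 0.30.

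The 15 paralogues were near the detection limit in both groups. Their counts summed to 24, 41 and 23 in M1BP RNAi, against 10, 4 and 22 in WT, at most 0.0483% of all counts on members in any library. Of the 15 genes, 13 never exceeded 5 counts in a library, and 3 counts, taken as the floor, correspond to 0.0542 to 0.103 CPM. Rpt3R, related to the ATPase Rpt3, had 7, 5 and 7 counts in M1BP RNAi, against 9, 4 and 7 in WT, with no separation. Rpt6R, related to Rpt6, had 14, 7 and 5 counts in M1BP RNAi, against 0, 0 and 1 in WT, without overlap, but it did not pass the filter and has no test. Of 9 testis germline markers, 4 (aly, sa, nht and bam) were at 0 in all 6 libraries, and the 9 summed to 0.723 to 1.28 CPM in M1BP RNAi and 0.455 to 1.08 CPM in WT. Another of the 9, mia, had 0.307, 0.461 and 0.413 CPM in M1BP RNAi, against 0.0828, 0.137 and 0.126 CPM in WT, without overlap (log2 1.78, edgeR adjusted p = 0.0161). The other tested markers, Mst87F (log2 -0.30, edgeR adjusted p = 0.575) and dj (log2 0.93, edgeR adjusted p = 0.630), went in opposite directions. Their groups overlapped, as did those of vas, which was not tested. The part of these markers in the Rpt6R counts was not tested. WT replicate 3, at 22.3 CPM of roX1, had 1 count of Rpt6R.

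For 30 of the 31 subunits another tested gene lies within 1000 bases, and the changes of the neighbours were set beside theirs. The gene nearest to each of the 31 subunits among the genes tested was called for 4 (12.9%), where 5.22% of the nearest genes of all genes tested were called. Prosalpha6 and Rpn12 each lie just upstream of a gene on the same strand that fell strongly. CG4908, which begins 111 bases past the end of Prosalpha6, had 7.53, 7.27 and 9.59 CPM in M1BP RNAi, against 59.1, 55.9 and 61.4 CPM in WT (log2 -2.85 ± 0.13, edgeR adjusted p = 2.63e-05). UQCR-C2, a core subunit of respiratory complex III that begins 102 bases past the end of Rpn12, had 113, 107 and 118 CPM in M1BP RNAi, against 2628, 2887 and 2756 CPM in WT (log2 -4.61 ± 0.08, edgeR adjusted p = 1.22e-06).

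The other called neighbours are divergent partners, with the starts of both genes close together. CG1671, 225 bases from Prosalpha7, had 3.63, 3.79 and 3.46 CPM in M1BP RNAi, against 0.869, 0.618 and 1.08 CPM in WT (log2 2.06 ± 0.21, edgeR adjusted p = 7.31e-04). Slbp, 258 bases from Rpn2, had 0.867, 1.24 and 0.884 CPM in M1BP RNAi, against 3.70, 3.06 and 3.57 CPM in WT (log2 -1.79 ± 0.19, edgeR adjusted p = 9.30e-04). The partner gene thus fell while the subunit gene rose for Rpn2, and both rose for Prosalpha7. Over the 31 subunits the nearest gene was on the same strand for 5, head to head for 10 and tail to tail for 16, with a median gap of 90 bases, against 70 for all genes tested.

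**Figure D5:**
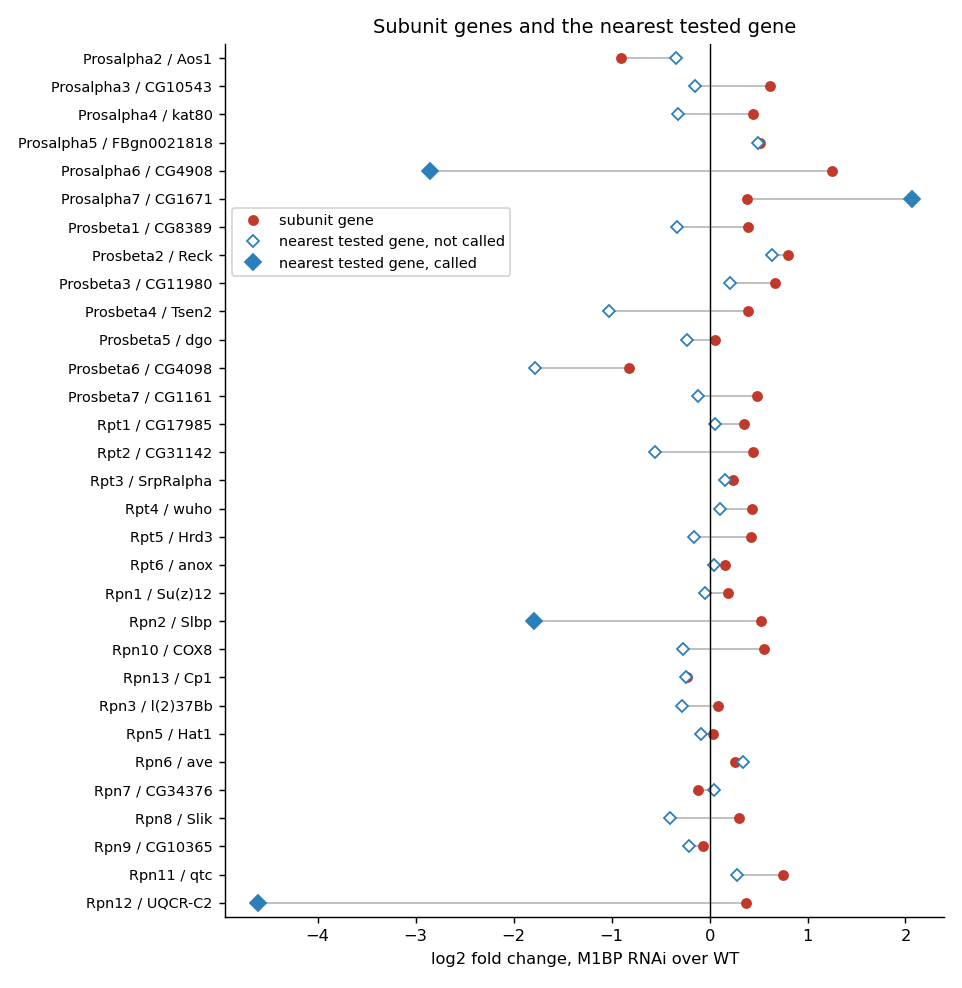
Log2 fold change of M1BP RNAi over WT for each of 31 subunit genes (red circles) and the nearest tested gene (diamonds, filled where called), joined by a line, with the pair named as subunit / neighbour. The widest pairs are Rpn12 and UQCR-C2 (0.37 and -4.61) and Prosalpha6 and CG4908 (1.25 and -2.85).

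A list of other genes of the ubiquitin-proteasome pathway was read beside the subunits. Of 26 listed genes, 24 were matched and tested, and they showed no common direction, with a median of -0.06 on the log2 scale. Of the 24, 4 rose and 3 fell at an adjusted p of 0.05, which is close to the 13.8% and 16.9% of all genes tested that did so. The stricter edgeR threshold called 0 higher and 1 lower, where it called 2.2% of all genes higher and 2.88% lower. DESeq2 called 3 higher and 1 lower, where it called 6.04% of all genes higher and 5.04% lower. At an unadjusted p below 0.05 edgeR counted 4 higher and 6 lower. These 10 of 24 are close to the share of all genes tested, 3649 of 8806.

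The 3 named genes that rose were separated between the groups. Pomp, the assembly chaperone of the core, had 69.0, 86.1 and 87.5 CPM in M1BP RNAi, against 42.6, 42.3 and 39.6 CPM in WT (log2 0.96 ± 0.11, edgeR adjusted p = 0.00102). Usp14, a deubiquitinase of the base, had 37.0, 44.2 and 40.8 CPM in M1BP RNAi, against 26.2, 28.1 and 27.8 CPM in WT (log2 0.57 ± 0.09, edgeR adjusted p = 0.00386). The ubiquitin-binding autophagy receptor ref(2)P had 40.0, 38.4 and 36.9 CPM in M1BP RNAi, against 25.0, 23.7 and 21.2 CPM in WT (log2 0.72 ± 0.09, edgeR adjusted p = 0.00142). In all 3 genes every M1BP RNAi library was above every WT library, though none met the stricter threshold in the edgeR fit of all libraries with its own filter. Pomp met it in 4 other edgeR fits (no filter on low counts, at least 10 counts in every library, mtDNA genes left out, and without M1BP RNAi replicate 1, where its adjusted p was 9.24e-04), and ref(2)P in the one with no filter.

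RpS27A, which encodes ubiquitin fused to a ribosomal protein, fell to 358, 396 and 393 CPM in M1BP RNAi, against 761, 800.1 and 690 CPM in WT (log2 -0.97 ± 0.08, edgeR adjusted p = 3.55e-04). It was called in 1 of the 6 fits that left out a library, the one without WT replicate 3. The shuttle factor Rad23 had 20.7, 22.0 and 23.1 CPM in M1BP RNAi, against 25.9, 29.0 and 27.0 CPM in WT (log2 -0.31, edgeR adjusted p = 0.0275). The transcription factor cnc, whose long isoform is known to activate proteasome genes in flies, had 47.4, 49.6 and 48.3 CPM in M1BP RNAi, against 59.7, 56.0 and 57.7 CPM in WT (log2 -0.25 ± 0.06, edgeR adjusted p = 0.0246). Gene-level counts do not separate the isoforms of cnc.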

How the data were processed

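Polyadenylated RNA was made into stranded libraries, and the authors deposited raw counts of uniquely mapped reads per gene on dm6. Per the labels, counting used featureCounts (Subread 2.0.3). A deposited table of the authors' own comparison (log2 fold changes and p-values) was used only to give gene symbols.

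Counts were tested with edgeR 4.0.16 (R 4.3.3; quasi-likelihood, TMM scaling, filterByExpr) over 8806 genes with Benjamini-Hochberg adjustment. A gene was called at an adjusted p of 0.001 or less and a change of 1.5-fold or more. SE is the log2 fold change divided by the square root of F. CPM used TMM-scaled library sizes. In 35 genes inside opposite-strand exons, reads per base had a median of 0.518% of the host gene, so counting used the strand. On simulated counts for 8724 genes, 77.3% of 2-fold and 100% of 4-fold changes were called, with 0 unchanged genes called. Changes of 1.5-fold were simulated too, but the share of them called was not summarised. The simulation gave every gene the same dispersion and set no library apart, unlike the real libraries.

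Named genes were M1BP, every called subunit, the highest and lowest log2 fold change and the highest RPKM of each class, paralogues with 10 or more counts in a library, and up to 3 other pathway genes per direction with the smallest adjusted p. Other subunits are given to account for all members. Rpt3R, the marker genes with values and the neighbouring genes were chosen after their values were seen. Members and lists were chosen with earlier results of these data known. Promoter motifs and protein identity were not analysed here. Alternatives were DESeq2 1.42.0, RLE scaling, other filters and thresholds, mtDNA genes left out, a replicate block and each library left out. The 2 fits on roX1 (covariate as log2 CPM with a prior count of 2, and without WT replicates 1 and 2) were added after the data were seen. Same-numbered libraries had correlated deviations of 0.31, -0.04 and 0.27, so the numbers were not taken to pair the samples.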

Additional observations from a re-analysis of the deposited data

How the results depend on the processing

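The sign of the log2 fold change was the same in all 15 fits for 28 of 31 subunits (the exceptions were Prosbeta5, Rpn5 and Rpn9), but the stricter calls depended on the fit. The threshold called 3 subunits higher and 2 lower with all libraries. It called 5 higher with DESeq2, 21 higher with the adjusted p set at 0.05 and no minimum fold, and 1 lower with RLE scaling. With the roX1 level as a covariate, added after seeing the data, it called 0 subunits higher and 0 lower. Over all genes that fit called 40 higher and 113 lower, against 194 and 254 with all libraries and no covariate. In the fit without WT replicates 1 and 2, also added after seeing the data, WT replicate 3 was the only WT library. Its counts at an adjusted p of 0.05, given with the roX1 results, therefore include no spread between WT libraries. Calls of the stricter threshold are not given for that fit. Leaving out 1 library gave 0 to 3 higher and 0 to 1 lower. The fit without WT replicate 3 had 3 higher (Prosalpha6, Prosbeta2 and Prosbeta3) and 1 lower (Prosbeta6). Each of the other 5 fits had 0, where 26 to 58 of all genes were called higher and 44 to 106 lower. Fewer samples are fitted there. At an adjusted p of 0.05, 10 subunits rose without M1BP RNAi replicate 2 (7.72% of all genes did), 14 without M1BP RNAi replicate 3 (9.07%) and 15 without WT replicate 1 (9.55%), against 21 with all libraries (13.8%). With the replicate number as a block, 1 subunit was called higher (Prosalpha6) and 0 lower, where 75 of all genes were called higher and 116 lower. In that fit 21 subunits rose and 2 fell at an adjusted p of 0.05, where 13.6% of all genes rose. The labels do not say that a number pairs samples. The log2 fold change of Prosalpha1, -0.86 with all libraries, lay between -1.30 and 1.26 with 1 library left out, and was 1.28 with the roX1 covariate and 0.68 without WT replicates 1 and 2. That of Prosbeta5, 0.06 with all libraries, lay between -0.088 and 0.15 with 1 library left out. The median over 31 subunits lay between 0.28 and 0.42 in all fits. Apart from the construction of the fits with fewer samples, the cause of these differences was not tested.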
